A study of Mus musculus with 26 samples.

Results

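The regions described here were 2707 peaks of the histone mark H3K4me3 that were called in Early-B cells, met no peak of their Ebf1-null progenitors and lay outside protein-coding genes. They were chosen by measured values: a pileup (the peak caller's read coverage) of at least 25, no shared base with any progenitor peak, no overlap with the span of a protein-coding gene, and more than 1 kb to every coding gene end. There were 48054 Early-B and 31414 progenitor peaks in all. The 2707 peaks are called members below. The V, D, J and C segments of antigen receptor genes are not annotated as protein-coding, so peaks in those loci could be members.

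The progenitors were mouse cells with the genotype Ebf1-/-, and the labels give no culture conditions or age for them. Early-B cells were the same Ebf1-/- cells carrying MigR1-EBF1.ER, a retroviral construct for an EBF1 fusion that 4-hydroxytamoxifen activates. They were cultured for 2 days on OP9, a stromal cell line, with SCF, FLT3-L, IL-7 and 4-hydroxytamoxifen. EBF1, the added tamoxifen, OP9 culture and the cytokines therefore cannot be told apart. The labels list 2 H3K4me3 samples and 2 input DNA samples per group, but 1 peak list per group was analysed here. No difference below has a replicate check, and the read depth behind the peaks is unknown. In a bulk sample, a mark in a few cells and a weak mark in all cells cannot be told apart.

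H3K4me3 is placed around the starts of genes in use or held ready, by the SET1 and MLL families of methyltransferases, and is usually strongest where DNA is rich in CG dinucleotides. Away from coding genes it is known at the starts of long non-coding RNAs, at unannotated promoters and, at lower levels, at active enhancers. EBF1 is the transcription factor that specifies the B lineage, and it can bind and open closed chromatin.

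The sequences shown first are the windows around annotated long non-coding RNA (lncRNA) start sites that lay inside members, since these are the members with a known start of transcription. Of the 2707 members, 81 held such a start from the set used here (2.99%), and together they held 87 start sites of 85 lncRNA genes. Each printed window runs from 250 bases before to 50 bases after the start, 5′ to 3′ on the gene's strand, from RefSeq's annotation of GRCm38.p6. The windows of Gm36809 (chr7:24954427-24954726, minus strand), Gm41928 (chr1:106523389-106523688, plus strand) and A230028O05Rik (chr16:25059389-25059688, plus strand) belong to the members with the highest pileup among these 81. Those of Gm31223 (chr8:80948706-80949005, plus strand) and 4930512J16Rik (chr6:89285676-89285975, minus strand) are further examples that hold the EBF1 core. In Gm36809, Gm31223 and 4930512J16Rik, capitals mark a match to that core, CCCNNGGG, which reads the same on both strands. In Gm41928 and A230028O05Rik, which hold no match, capitals mark the CG dinucleotides.
Gm36809: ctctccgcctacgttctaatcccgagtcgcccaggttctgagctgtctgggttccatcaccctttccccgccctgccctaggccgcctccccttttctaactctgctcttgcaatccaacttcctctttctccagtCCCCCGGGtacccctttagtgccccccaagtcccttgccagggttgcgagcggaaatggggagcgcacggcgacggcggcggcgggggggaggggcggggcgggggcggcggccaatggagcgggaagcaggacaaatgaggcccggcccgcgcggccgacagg
Gm41928: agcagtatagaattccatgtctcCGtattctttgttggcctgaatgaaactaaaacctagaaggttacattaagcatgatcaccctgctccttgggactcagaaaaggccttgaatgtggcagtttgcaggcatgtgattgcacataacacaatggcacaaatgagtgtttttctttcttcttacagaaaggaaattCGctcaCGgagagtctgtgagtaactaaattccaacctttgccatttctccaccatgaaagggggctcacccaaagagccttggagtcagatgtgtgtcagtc
A230028O05Rik: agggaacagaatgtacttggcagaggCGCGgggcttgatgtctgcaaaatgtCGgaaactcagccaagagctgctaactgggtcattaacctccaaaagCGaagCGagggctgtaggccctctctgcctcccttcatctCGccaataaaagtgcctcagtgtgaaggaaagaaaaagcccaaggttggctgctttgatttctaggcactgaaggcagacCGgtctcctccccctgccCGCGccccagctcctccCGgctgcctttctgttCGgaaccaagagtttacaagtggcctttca
Gm31223: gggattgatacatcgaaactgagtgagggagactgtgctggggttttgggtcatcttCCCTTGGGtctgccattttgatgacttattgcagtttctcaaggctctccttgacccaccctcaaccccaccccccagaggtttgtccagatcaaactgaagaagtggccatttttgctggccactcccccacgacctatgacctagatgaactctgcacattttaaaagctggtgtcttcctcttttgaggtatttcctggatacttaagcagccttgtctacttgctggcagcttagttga
4930512J16Rik: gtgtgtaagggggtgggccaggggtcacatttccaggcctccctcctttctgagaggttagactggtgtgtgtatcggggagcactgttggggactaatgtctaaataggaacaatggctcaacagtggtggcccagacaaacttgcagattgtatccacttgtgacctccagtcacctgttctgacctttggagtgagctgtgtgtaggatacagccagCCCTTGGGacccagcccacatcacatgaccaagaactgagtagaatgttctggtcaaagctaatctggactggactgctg

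The member over the Gm36809 start had a pileup of 84.4, a fold enrichment (the authors' ratio of signal to background) of 11.6 and a −log10 p of 75.4. Its window held 26 CG dinucleotides and was 67.7% GC. The nearest coding gene was Erfl, 7.31 kb away. The Gm41928 start lay in a member with a pileup of 75.4 and a fold of 8.03, located 14.2 kb downstream of Bcl2, the gene of an anti-apoptotic protein of lymphocytes. Its window held 3 CG dinucleotides. The A230028O05Rik start lay in a member with a pileup of 70.8 and a fold of 9.32, located 65.6 kb downstream of Lpp, and its window held 11. The member at Gm31223 had a pileup of 50.8 and that at 4930512J16Rik 45.8, with 2 and 1 CG dinucleotides in their windows. The windows with strong members thus ranged from CG-rich to CG-poor.

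Across all 87 windows, the median was 4 CG dinucleotides (quartiles 3 and 7). Shared peaks are those outside coding genes, with a pileup of at least 25, that met a progenitor peak. The 441 lncRNA start windows in them had a median of 7 (quartiles 4 and 14). As a class, shared peaks had the higher median pileup, 41.1 against 34.2 in members, and pileup was not held equal here. Weaker Early-B-only peaks outside coding genes, with a pileup under 25, held 109 such windows with a median of 4, and the 6421 windows in no peak of either list had a median of 3. At least 10 CG dinucleotides were present in 10.3% of the windows in members, 36.7% of those in shared peaks and 16.5% of those in weaker Early-B-only peaks. The share was 6.34% in the windows in no peak and 43.5% over all 32851 windows of the table. That last set includes 21263 protein-coding windows, where it was 56.8%. A match to CCCNNGGG was present in 8 of the 87 windows, 9.20% (95% Clopper-Pearson interval 4.05 to 17.3, which covers counting error only). The share was 12.5% in shared peaks, 13.8% in weaker Early-B-only peaks, 7.65% in windows without a peak and 13.7% over all windows. The E-box read as CAGGTG or CACCTG, the site class of E2A proteins that work beside EBF1, was present in 20.7% of the windows in members (12.7 to 30.7) and in 20.2% of all windows. For both motifs the interval of the members included the share over all windows. A match is a run of letters only.

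**Figure D1:**
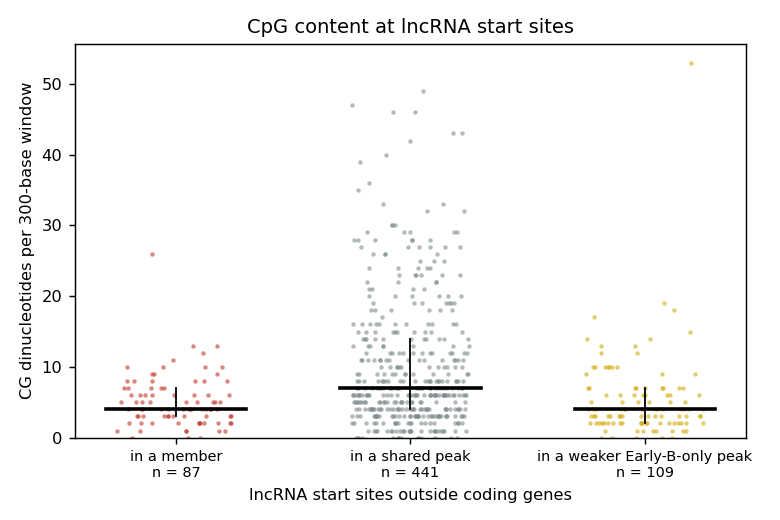
CG dinucleotides in the 300-base window at each lncRNA start site outside coding genes, by the class of Early-B peak that holds it. Each point is 1 window, thick bars are medians and thin bars the quartiles; the medians were 4 in members, 7 in shared peaks and 4 in weaker Early-B-only peaks.

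Outside coding genes the Early-B list had 6166 peaks with a pileup of at least 25, and 43.9% of them were members (95% Clopper-Pearson interval over peaks 42.7 to 45.2). The other 3459 were shared with progenitors. Anywhere in the genome, 23.3% of 20449 such peaks met no progenitor peak. These shares follow from the rule and are a description. The share that was Early-B only fell with pileup: outside coding genes it was 56.8% at a pileup of 25 to 30, 49.6% at 30 to 40, 40.5% at 40 to 60, 21.4% at 60 to 100 and 3.96% at 100 or more. Inside coding genes the shares at the same steps were 51.1, 47.0, 35.6, 19.5 and 2.14%. Within 1 kb of coding gene ends they were 25.1, 18.4, 12.2, 2.40 and 0.215%. The share outside coding genes was thus above that inside at each step, with overlapping intervals at 4 of 5 steps. Over all steps it was 43.9% outside and 36.5% inside (35.1 to 37.9). Peaks at gene ends had lower shares throughout, with 3.68% over all steps. Peak width was not held equal in this comparison, and a wider peak meets another more readily.

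**Figure D2:**
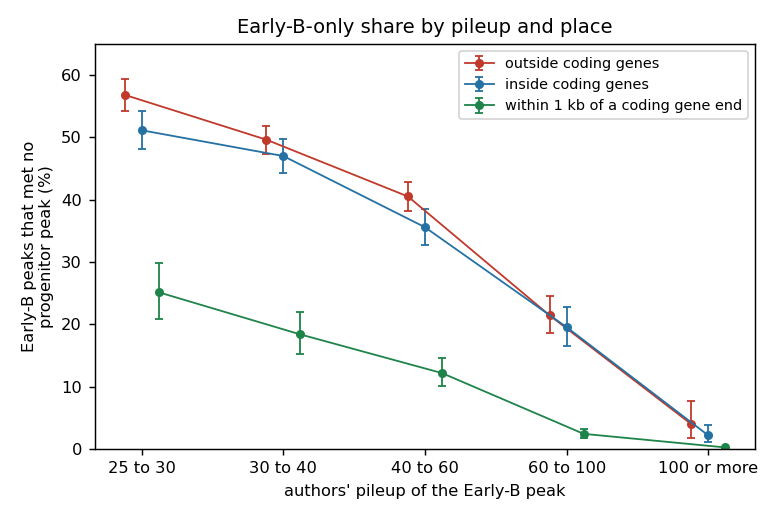
Share of Early-B peaks that met no progenitor peak, in percent, by the pileup of the Early-B peak, for peaks outside coding genes, inside them and within 1 kb of their ends. Bars are 95% Clopper-Pearson intervals over peaks; the curve outside coding genes ran from 56.8% to 3.96%.

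With the roles of the lists exchanged, 2700 progenitor peaks with a pileup of at least 25 lay outside coding genes, and 57 of them (2.11%) met no Early-B peak. Their pileups ran up to 96.8 with a median of 28.3, and their folds from 1.20 to 5.24 with a median of 3.43. The Early-B list was the longer of the pair, and no source used here says whether pileup was scaled between the lists. When the progenitor list was instead taken down to a pileup of 16.6, where it held 20462 peaks, 499 of 5137 peaks outside coding genes (9.71%) met no Early-B peak. The lists searched for overlap stayed whole and of unequal length. The share was still under the 43.9% of the Early-B list. The depth of the libraries and a difference between the cells cannot be told apart here.

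Members were weaker and narrower than shared peaks. Their pileup ran from 25 to 2456 with a median of 34.2 (quartiles 28.7 and 43.5), against a median of 41.1 in shared peaks. The median fold was 4.48 (quartiles 3.80 and 5.63) against 5.37, the median −log10 p was 15.5 against 21.8, and the median width was 1506 bp against 1893 bp. The 1703 Early-B-only peaks inside coding genes were close to the members in all of these, with a median pileup of 33.9, a fold of 4.42 and a width of 1539 bp. Since pileup chose the members, these values are given as a description. Of the 2707 members, 29 had a fold of at least 10, against 343 of the 3459 shared peaks. A −log10 p of at least 50 was reached by 78 members and 531 shared peaks. In the authors' deposited table, 15 members (0.554%) and 10 shared peaks (0.289%) had a q above 0.05. The members just inside the threshold, at a pileup of 25, had Tmem200a, Pde9a and Cdkn2a as nearest coding genes and folds of 3.24, 3.34 and 3.43. The peaks just outside it, at 24.99, lay near Egfl7, Fas and Nab1 and had folds of 3.42, 3.43 and 3.18.

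**Figure D3:**
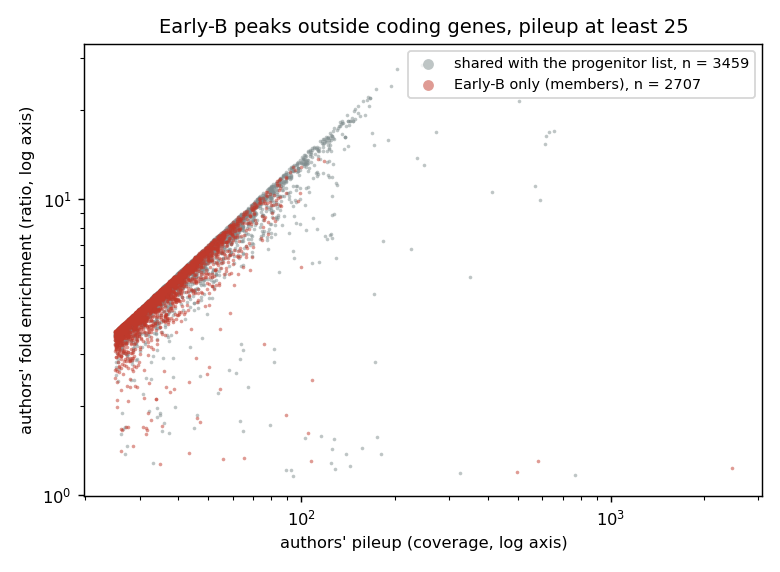
The authors' pileup and fold enrichment (both on log axes) of each Early-B peak outside coding genes with a pileup of at least 25, with members and shared peaks in different colours. Most points follow 1 rising band, and 26 members had a fold under 2, among them those with pileups of 2456, 580 and 496.

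The 3 members with the highest pileup had almost no enrichment over background. A pair on chromosome 15, 496 and 328 bp wide and 21.1 and 22.4 kb downstream of Ly6c2, had pileups of 2456 and 580 with folds of 1.23 and 1.30. A peak on chromosome 18 near Vmn1r238, a vomeronasal receptor gene, had 496 with a fold of 1.20. The members near Tmem125 (pileup 107, fold 1.30) and Vmn1r2 (105 and 1.62) were of the same kind, and that near Gm40035 (108) had a fold of 2.46. In all, 26 members had a fold under 2, with a median pileup of 33.8. A high pileup with a fold near 1 corresponds to a high background value at the same place.

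Other members were high on both scales. The peak at chr3:137609869-137611958, 11.7 kb upstream of Ddit4l, had a pileup of 118, a fold of 13.4 and a −log10 p of 106. Ddit4l encodes an inhibitor of mTOR signalling. The peak at chr11:72939991-72941134, 12.9 kb downstream of Zzef1 and inside the lncRNA gene Gm34704, had a pileup of 113, a fold of 13.7 and a −log10 p of 102. A progenitor peak lay 4.22 kb from it, and the nearest to the Ddit4l peak was 79.4 kb away. The member 5.10 kb downstream of Stox2, in the lncRNA gene Gm51569, had a pileup of 99.5 and a fold of 12.9, with the nearest progenitor peak 231 kb away. Folds of 12.9 and 12.5 were also found near Mbd2, a reader of methylated DNA, and Cecr2, a chromatin remodelling factor. The remaining members among the 12 highest pileups lay near Slmap (99.5, fold 5.88), Got2 (99.0, fold 10.5) and Asah2 (97.5, fold 9.86). The widest member, 14913 bp with a pileup of 44.5, lay 68.6 kb downstream of Pced1b. The next were 12032 bp wide near Eps8l3, 10304 bp near E2f8, a cell cycle repressor, 9615 bp near Prdm13 and 9441 bp near Ncam2.

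Members lay farther from coding genes than shared peaks did. The median distance was 32.5 kb (95% interval 29.6 to 35.4), against 18.7 kb for shared peaks and 39.4 kb for weaker Early-B-only peaks. Of the members, 590 lay 1 to 10 kb from the nearest coding gene, 1464 at 10 to 100 kb, 606 at 100 to 1000 kb and 47 farther. In shared peaks, 32.2% lay within 10 kb against 21.8% of members. RefSeq's start windows gave a single strand of the nearest gene for 2128 members, and 55.9% of these lay on its upstream side. They gave none for the other 579 members. The side was not counted for shared or weaker peaks. From the nearest progenitor peak, the median distance was 25446 bp: 19 members came within 1 kb of one, 468 within 5 kb, and 689 were more than 100 kb away.

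**Figure D4:**
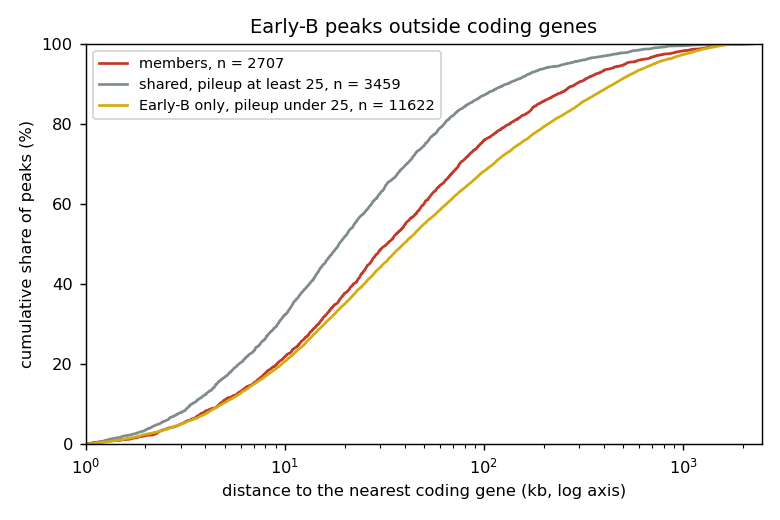
Cumulative share of Early-B peaks outside coding genes by distance to the nearest coding gene (kb, log axis). The medians were 32.5 kb for members, 18.7 kb for shared peaks and 39.4 kb for weaker Early-B-only peaks.

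Every one of the 20 chromosomes with peaks held members. Their density was highest on chromosome 19 with 1.94 per Mb, followed by chromosome 10 with 1.48, chromosome 3 with 1.43 and chromosome 1 with 1.27. It was lowest on chromosome 7 with 0.585 and X with 0.527. Shared peaks outside coding genes were likewise densest on chromosome 19 (2.04 per Mb) and sparsest on X (0.633). Of the strong peaks outside coding genes, the share that were members ran from 53.1% on chromosome 3 and 50.7% on chromosome 1 to 32.1% on chromosome 11 and 31.5% on chromosome 7.

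Annotated non-coding RNA genes accounted for a minority of the members. Such a gene lay within 1 kb of 576 members, 21.3% (19.7 to 22.9), against 31.4% of shared and 15.6% of weaker Early-B-only peaks. The centre of the peak lay in a lncRNA gene for 17.0% of members, 22.2% of shared and 13.3% of weaker peaks. A lncRNA start site lay in 2.99% of members (2.38 to 3.71), in 10.4% of shared peaks (9.38 to 11.4) and in 0.869% of weaker ones (0.708 to 1.05). The start sites used did not cover every chromosome, and peaks where they were missing stayed in the denominators (see the processing section). A wider peak holds a start more readily. Counted within 1 kb of the peak's centre, which does not depend on width, the shares were 3.32% (2.68 to 4.07), 8.44% (7.54 to 9.42) and 1.76% (1.52 to 2.01). The order was the same by both counts, and the members stood closer to the weaker peaks by the second. Pileup was not held equal in either count. A pseudogene lay within 1 kb of 3.03% of members, 10.1% of shared and 3.32% of weaker Early-B-only peaks. The members with the highest pileup in a lncRNA gene, after those already named, were in B930025P03Rik, 112 kb downstream of the insulin receptor substrate gene Irs2 (pileup 85.6, fold 9.47), and in 1700122C19Rik, 29.4 kb downstream of Hhex (85.3, fold 9.59). Hhex encodes a homeobox factor of blood progenitors and B cells. Others were in Gm35761 near Guca2b (83.9), Gm34490 near Lrig2 (82.5), Uchl1os near Uchl1 (81.1) and Gm43464 near Man1a2 (80.1). The last of the named members, that near Tmem125 in Gm40237, had the fold of 1.30 given above.

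MicroRNA genes lay within 10 kb of 12 members, 0.443% (0.229 to 0.773), against 1.94% of shared and 0.620% of weaker Early-B-only peaks. In 1 case the gene itself lay inside the member: Mir6367, in a peak near the interferon receptor gene Ifnar1 with a pileup of 38.1 and a fold of 5.21. Mir100 lay 4522 bp from a member near Ubash3b with a pileup of 38.8. Mature sequences are shown for Mir6367 and for the microRNAs near members that share a seed, bases 2 to 8 in capitals, from RefSeq (GRCm38.p6). Those of Mir7045 and Mir6409 have the seed GCGGGUG in common, and their genes lay 2540 and 7496 bp from members with pileups of 36.3 and 31.4.
mmu-miR-6367: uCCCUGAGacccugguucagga
mmu-miR-7045-5p: aGCGGGUGggggagggggacu
mmu-miR-6409: uGCGGGUGaggaugugugcuccu

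Many members lay close together. When neighbours at most 100 kb apart were chained, 1248 members (46.1%) fell into 487 groups of 2 or more, and 1459 stood alone. There were 27 groups of 5 or more, which held 159 members. Shared and weaker peaks were not chained in this way. Whether such grouping is particular to the members was therefore not tested. Members of a group share a locus and need not be independent. The intervals over peaks given here count each peak once and take no account of this, so they may be too narrow.

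The group with the most members lay on chromosome 4, from 89248842 to 89516929, around Cdkn2a and Cdkn2b, the genes of cyclin-dependent kinase inhibitors that restrain the cell cycle. It held 10 members over 268 kb, with pileups of 25 to 58.6 and folds of 3.39 to 7.69. Of these, 9 lay in the lncRNA gene Gm12610, and the highest was the last of the row toward Dmrta1. The same interval held 22 Early-B peaks in all but 3 progenitor peaks, with progenitor pileups of 132, 81.1 and 15.7. The Early-B peaks that met these had pileups of 45.1, 20.7 and 45.2, in the same order. Progenitor peaks were thus fewer there, but those of 132 and 81.1 were higher than the Early-B peaks they met. Whether pileup was scaled between the lists is not known. By the rule, no member met a progenitor peak.

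On chromosome 1, from 156955730 to 157077305, 9 members with pileups of 26.0 to 48.4 filled 122 kb between Ralgps2, which encodes an exchange factor for Ral GTPases, and Tex35. This interval held 12 Early-B peaks, no progenitor peak and no coding gene. The 9 members covered 19.7 kb of it. On chromosome 3, 8 members with pileups of 25 to 40.2 lay among Abca4, Gclm, Dnttip2 and Bcar3, where the lists held 20 Early-B and 6 progenitor peaks. On chromosome 10, 7 members with pileups of 28.8 to 60.4 lay between Cd24a, the gene of the heat-stable antigen on early B cells, and Qrsl1. The 3 nearest Cd24a lay 118 to 138 kb from it and had pileups of 60.4, 42.1 and 55.3. A shared peak 13.9 kb wide with a pileup of 67.5 lay in the same interval, where the progenitor list had 3 peaks of 25.7, 17.4 and 13.4. A further group of 7 lay in the Igk locus. Other groups without any progenitor peak included 6 members near Lonrf1 and Trmt9b (pileups up to 82.8) and 6 near Arl4a. Further such groups were 6 between Slc2a13 and Lrrk2, 5 near Kcnrg (up to 75.6), 5 near Tle4 and 5 between Nxnl2 and S1pr3.

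**Figure D5:**
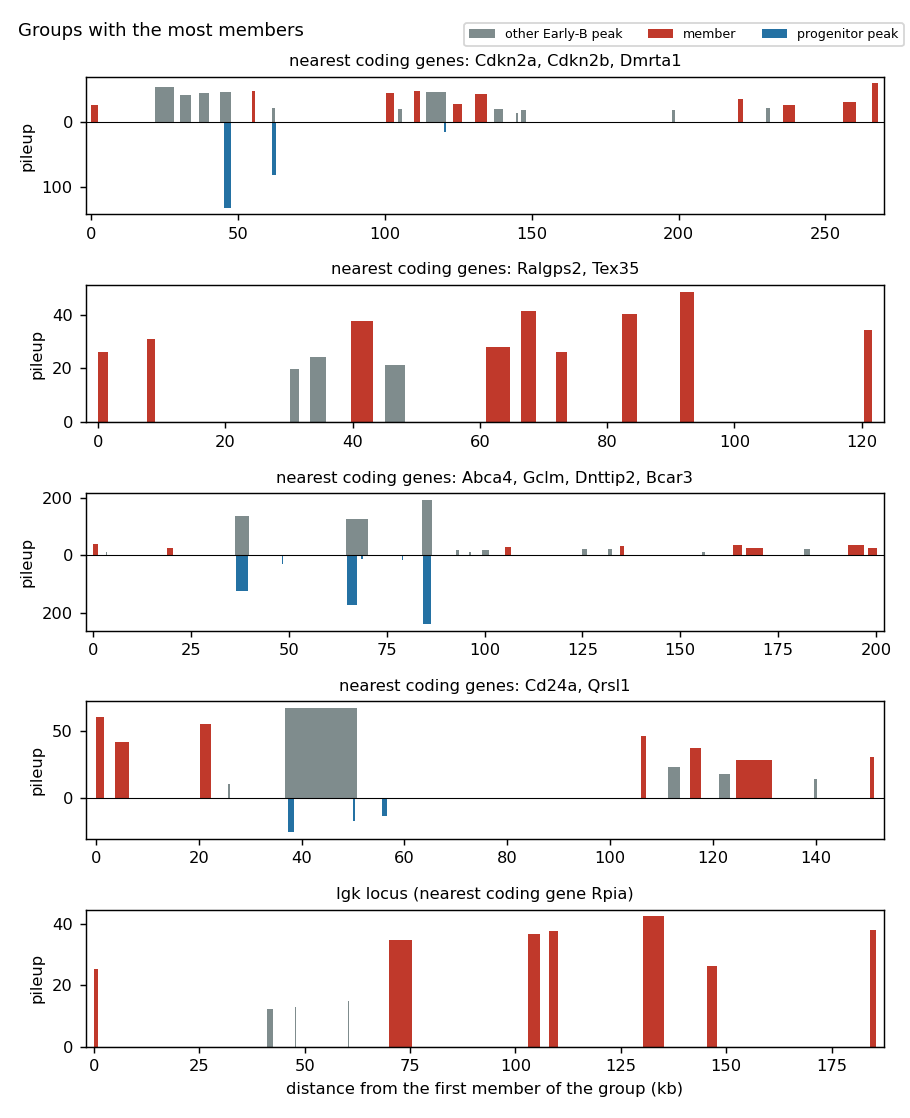
Peaks in the groups with the most members, 1 panel per group, by distance in kb from the first member. Bar height is the authors' pileup, with Early-B peaks above the line (members in red, other Early-B peaks in grey) and progenitor peaks below it; the Ralgps2 and Igk panels show no progenitor peak.

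Counted by nearest coding gene, the 2707 members belonged to 1904 genes, of which 1421 had 1 member and 35 had 5 or more. The nearest gene is a name for the place and not a known target. Outside receptor loci, the genes with at least 6 members, picked after the counts were seen, included Adgrl2 and Tle4 with 10 each, Zeb2 with 8, Cdkn2b, Foxo1 and Got2 with 7 each, and Arl4a, Dnajb9 and Ndufa4 with 6 each. Tle4 encodes a Groucho corepressor. Its 10 members lay 57.1 to 419 kb away with pileups of 25.4 to 56.6, and no shared peak with a pileup of at least 25 outside coding genes had Tle4 as its nearest gene. Progenitor peaks of any pileup outside coding genes numbered 2 for Tle4, 8 for Adgrl2, 6 each for Zeb2 and Got2, and 4 for Foxo1. There was 1 each for Cdkn2b, Dnajb9 and Ndufa4, and 0 for Arl4a.

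The immunoglobulin kappa locus, whose V segments are rearranged in B cells after the heavy chain, was the receptor locus with the most members. Between 67555636 and 70726754 on chromosome 6 the Early-B list held 25 peaks with a pileup of at least 25, and 24 of them were members. The progenitor list held 7 peaks there, 1 of them with a pileup of at least 25, while the Early-B list held 119. The 24 members had pileups of 25.4 to 55.6 with a median of 32.0, and folds of 2.62 to 6.96 with a median of 4.44. Of these, 10 met an annotated segment, among them those at Igkv4-58 (39.2) and Igkv6-32 (36.6). The highest, at 55.6, lay 3.96 kb from Igkv14-130. The member nearest the J segments lay 7.51 kb from Igkj1 and had a pileup of 26.0. Sequence similarity between V segments makes the placing of reads uncertain in these loci.

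In the heavy chain locus, Igh, on chromosome 12, 18 of 35 Early-B peaks with a pileup of at least 25 were members. Counting peaks of any pileup, there were 121 in Early-B cells and 82 in progenitors. The 18 members had pileups of 25.2 to 62.1 but a lower median fold of 2.33, and 6 of them had a fold under 2. The highest, with a pileup of 62.1 and a fold of 7.86, lay on Ighv5-15, and the next, 54.7 with a fold of 3.64, on Ighv5-12. In the T cell receptor alpha locus, 2 of 24 Early-B peaks with a pileup of at least 25 were members. They had a pileup of 48.3 at Trdc, the constant segment of the delta chain, and 25.9 at Trav17. The progenitor list held 34 peaks with a pileup of at least 25 there. The Tcrb, Tcrg and Igl loci held none, with 1, 7 and 0 Early-B peaks of that pileup. In all, 44 members (1.63%, interval 1.18 to 2.18) lay in a receptor locus, against 1.33% of shared (0.975 to 1.77) and 1.51% of weaker Early-B-only peaks. The share over all receptor loci was therefore not distinguishable from that of the other classes.

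As a check of the labels, the ends of coding genes were searched for peaks within 1 kb. Of 50 genes of the B lineage list, 46 had an end peak in Early-B cells and 33 in progenitors, with Pax5, Igll1, Vpreb2, Vpreb3 and Blnk among the 13 marked in Early-B only. Of 39 stromal and mesenchymal genes, 32 had one in Early-B cells and 15 in progenitors. Of 28 T lineage and Notch genes the counts were 20 and 18, of 20 stem and progenitor genes 15 and 19, of 20 myeloid genes 11 and 13, of 20 non-blood developmental regulators 5 and 7, and of 15 housekeeping genes 14 and 14. Marked stromal genes therefore accompanied the B lineage genes in the Early-B list. The part of stromal cells in the members was not tested.

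The B lineage list was the nearest gene of 39 members, 1.44%, on 16 of its 50 genes. It was the nearest of 1.16% of shared and 0.895% of weaker Early-B-only peaks. Counting any list gene within 100 kb instead turned the order of members and shared peaks. The counts were then 39 members (1.44%) and 53 shared peaks (1.53%), with 0.946% of weaker peaks. These 39 members are not the same set as the 39 by nearest gene. The list was chosen with results of these data known. Foxo1, the forkhead factor that early B cells need for recombination and interleukin-7 receptor expression, had 7 members. They formed a row 39.6 to 293 kb downstream, with pileups in that order of 56.8, 44.0, 30.9, 32.7, 28.7, 45.4 and 26.2. The first was 8000 bp wide. Zeb2, a zinc finger repressor, had 8 members of 27.6 to 46.2, of which 6 lay 1325 to 1650 kb upstream, so that nearest here means only that no other coding gene was closer. Lef1, a Wnt-responsive factor of pro-B cells, had 4 upstream with pileups of 53.6, 36.4, 25.1 and 30.8. Bach2, a repressor active at the pre-B cell receptor checkpoint, had 3 between 8.57 and 20.7 kb upstream with pileups of 38.0, 44.9 and 40.8. Bcl11a, needed for early lymphoid development, had 3 located 80.5, 216 and 870 kb downstream, with pileups of 34.9, 63.0 and 26.1.

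The list's highest member lay 30.8 kb upstream of Myb, a factor of progenitors and pro-B cells, with a pileup of 76.6 and a fold of 10.4, and 2.33 kb from a progenitor peak. Ebf1 had 1 member, 52.8 kb downstream of its span, with a pileup of 59.7, a fold of 8.13 and the nearest progenitor peak 112 kb away. Nedd9, an adaptor protein gene, had 2 with pileups of 54.9 and 45.1. Single members lay near Bst1, an ectoenzyme of early B cells (47.3), Syk, the kinase of B cell receptor signalling (44.9), Il7r, the interleukin-7 receptor (40.6), Cr2, a complement receptor (36.4), Ebf2 (33.3), Bank1 (27.9) and Aff3 (26.9). At the ends of 13 of these 16 genes both lists had a peak. Bst1 had one in Early-B only, and Aff3 and Ebf2 had none. No member was nearest to Pax5, Cd79a, Cd79b, Igll1 or Blnk.

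The other lists had fewer members. The T lineage and Notch list had 12 (0.443% of members, 0.463% of shared peaks by nearest gene, and 0.406% against 0.665% within 100 kb). Of these, 5 lay upstream of Runx1 with pileups of 28.9 to 39.2 and 4 nearest to Ets1 with 27.9 to 53.7, and both factors also act in B cells. The rest were single members near Cd6 (41.9), Gata3 (27.3, at 1196 kb) and Il2ra (26.4). The stem and progenitor list had 6: Hhex, given above, Fli1 (44.6), Mecom (41.1), Meis1 (33.6), Lmo2 (27.6) and Mycn (26.2). The myeloid list had 6, made up of the pair of low fold near Ly6c2 and those near Cebpb (30.1), Csf2ra (27.1) and Csf3r (28.1 and 26.5).

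The stromal and mesenchymal list had 9 members, 0.332% of members against 0.231% of shared and 0.620% of weaker Early-B-only peaks. Within 100 kb of a list gene, the order of members and shared peaks turned, with 0.332% against 0.347%. By nearest gene, the 9 lay near Thbs2 (39.6), Twist2 (37.4), Cxcl12 (35.1), Ebf2 (33.3, a gene of both lists), Nt5e (31.9), Tgfbr2 (31.8 and 26.8), Thbs1 (27.5) and Il6 (25.6). Thbs2, Twist2, Cxcl12 and Thbs1 had end peaks in Early-B only. The non-blood developmental regulators had 11 members, 0.406% against 0.0578% of shared and 0.396% of weaker peaks. The shared share rested on 2 peaks, and within 100 kb the counts were 14 members (0.517%) and 7 shared peaks (0.202%). By nearest gene they included 4 near Sox1 (25.4 to 28.5), 3 near Foxa2 (25.5 to 41.7), 2 near Gata6 (30.2 and 34.4) and 1 near Pax6 (34.9). The ends of Sox1, Foxa2 and Pax6 had a peak in neither list, while Gata6 had an end peak in Early-B only. The housekeeping list had 0 of the 2707 by nearest gene, against 8 of the 3459 shared peaks. Within 100 kb of a housekeeping gene there were 7 members and 23 shared peaks.

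For most members the nearest coding gene was marked in both lists. Its end had a peak in both for 63.1% of members, in Early-B only for 7.79%, in progenitors only for 2.29% and in neither for 26.9%. For shared peaks these shares were 71.6, 5.12, 2.72 and 20.6%, and for weaker Early-B-only peaks 54.7, 8.13, 2.49 and 34.7%. Over all 21887 coding genes they were 53.5, 5.75, 2.34 and 38.4%. An Early-B-only end peak was thus found beside 211 of 2707 members.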

How the data were processed

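Both H3K4me3 peak lists were used as the authors deposited them. MACS 1.4.3 and Bowtie 1.1.2 were named per the submitters' processing notes, with GRCh38 and mm10 as builds and no role for each. The columns are those of a later MACS release. Pooling of replicates, use of input and settings were not given in the sources used here. Per the file headers, pileup is a coverage signal and fold enrichment a ratio. The deposited columns read as −log10 p and −log10 q have damaged headers and were identified by order and values. These p-values and q-values belong to the authors' calling of each peak against background, and none was computed here. Each list was assigned to its group by its name. The series' RNA samples were not used.

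Coordinates, counted from 1, were joined to 21887 protein-coding spans of RefSeq GRCm38.p6, the assembly of mm10. A shared peak was one with at least 1 bp in common. No genome of this build was used, so motifs were searched in RefSeq's 300-base windows at lncRNA starts in place of whole peaks. The set of lncRNA starts held none on chromosome 18. The 98 members and 97 shared peaks there could not hold a start but stayed in the denominators of the start-site shares. Side was read from the strand of RefSeq's windows for the nearest coding gene, where these gave a single strand. Intervals are 95% Clopper-Pearson intervals over peaks (for medians, order statistics) and cover counting error only, with neighbouring peaks treated as independent. Peaks are not replicates, and no test between conditions was made. Calculations used pandas 2.3.3, numpy 2.4.6, scipy 1.17.1 and, for figures, matplotlib 3.10.9 under Python 3.11.15. On simulated lists, 572 of 572 planted members were found.

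Members, the 7 gene lists (193 entries) and the tests were chosen with earlier results of these data known. Named were the 12 members of highest pileup, the 5 widest, the 5 of highest fold, up to 10 within 1 kb of a non-coding RNA gene, 3 on each side of the threshold, the largest groups, and up to 6 per gene list, each by nearest coding gene. Genes with at least 6 members, further members of the lists and further groups were named after their values were seen. A few genes under these rules stay in the counts and are not reported here.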

Additional observations from a re-analysis of the deposited data

How the results depend on the processing

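The number of members followed the pileup threshold: it was 4160 at a pileup of at least 20, 1838 at 30 and 881 at 40, against 2707 at 25. The count of progenitor-only peaks in the exchanged comparison rose from 57 to 499 when the progenitor peaks were taken down to equal rank, with both whole lists still searched for overlap. The other planned settings kept the number of members within 1.5 times: 2688 when a progenitor peak within 1 kb also counted, 3977 when only 50% overlap counted, 3392 with progenitor peaks of q at most 0.05, 2410 and 2754 with 5 kb and 0 kb to coding genes, 2689 with an Early-B q of at most 0.01, and 2060 without non-coding genes and pseudogenes. Settings chosen after seeing the data gave 2681 with a fold of at least 2 and 2663 without receptor loci. Members near non-coding RNA genes numbered 533 at 0 kb and 748 at 5 kb against 576, and members in groups 939 at 50 kb and 1623 at 200 kb against 1248. The median distance to a coding gene stayed between 32.4 and 34.0 kb. Within 100 kb of a B lineage gene there were 39 members, a number equal to the count by nearest gene. The sets differ, since members nearest to Zeb2 lay as far as 1650 kb from it. For shared peaks the count rose from 40 to 53, so that the members' share went from above to below theirs. The motif share in a window at the peak centre was not run, since no genome was used. No paired analysis was possible because each group had 1 peak list, and for the same reason no replicate could be left out. With the depth unknown, the absence of a progenitor peak says only that none was called.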
